A study of Mus musculus with 6 samples.

Results

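The genes described are 10 members of the cytotoxic programme of lymphocytes: *Prf1*, *Gzma*, *Gzmb*, *Gzmk*, *Gzmm*, *Nkg7*, *Ctsw*, *Eomes*, *Tbx21* and *Ccl5*. They were chosen by symbol, and each of the 10 had a single row on the arrays, out of 19752 genes measured. In mature CD4 SP thymocytes, *Prf1* was 3.71-fold higher in dKO cells than in wild-type cells and was the only member that rose. *Ctsw* and *Nkg7* were lower by 1.78-fold and 1.46-fold. No change passed the test for any of the 4 granzymes, for the transcription factor genes *Eomes* and *Tbx21* or for *Ccl5*.

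RNA was taken from Vα2hi CD24lo CD4 SP thymocytes of mice carrying the OT-II TCR transgene, a class II-restricted receptor that directs cells to the CD4 lineage. The 3 dKO samples, labelled Jmd3f/f-utxf/f, carried floxed *Kdm6b* (Jmjd3) and *Kdm6a* (Utx) alleles deleted by Cre under *Cd4* control, which acts from the CD4+CD8+ (DP) stage on. The 3 wild-type samples carried OT-II without Cre, and the Methods describe such controls as Cre-negative floxed littermates. Each sample was hybridized to 1 Affymetrix array, and its values are log2 values after RMA normalization. The labels call the samples biological replicates but give no age and do not say that each came from its own mouse, so the spread behind each p-value is that between samples and may be technical.

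On the log2 scale the arrays had medians of 6.27 to 6.32 and first quartiles of 4.97 to 5.01. Over genes, arrays of a genotype correlated at 0.998 to 0.999, and arrays of different genotypes at 0.991 to 0.993. *Kdm6a* was lower in dKO cells (log2 fold change -0.67, adjusted p = 2.6e-05 from limma), whereas *Kdm6b* stood at -0.09 (adjusted p = 0.32). These summaries span the whole transcript, of which the deletion takes a part, so neither measures the deletion. Of 7 measured genes of T-cell identity, all lay at 10.89 or higher on every array, while 3 B-cell markers lay at 5.63 or lower. Of these 7 genes, *Cd5* and *Thy1* were lower in dKO cells, at -0.43 and -0.61 (adjusted p = 0.0023 and 1.4e-04 from limma), with no overlap between genotypes. Among all genes, 10% were called lower, 23.1% were called in either direction and 16.5% had all dKO arrays below all wild-type arrays.

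Cytotoxic lymphocytes kill by releasing granules that hold perforin, which forms pores in the membrane of the target cell, and granzymes, serine proteases that enter through these pores and trigger death. The genes are typically expressed in NK cells and in activated CD8+ T-cells, where the T-box factors Eomes and T-bet (encoded by *Tbx21*) and Runx3 promote their transcription. Cells of the CD4 lineage normally hold most of this programme silent, in part through the transcription factor Thpok.

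To show the regulatory DNA of members that moved apart, the promoter windows of *Prf1* (higher in dKO cells), *Nkg7* (lower) and *Gzmb* (not past the test) are printed from RefSeq, GRCm38.p6, 5′ to 3′ in the direction of the gene. Each window of 300 bases spans 250 bases before and 50 after the start site. It lies at chr10:61297586-61297885 (plus strand) for *Prf1*, at chr7:43436888-43437187 (plus strand) for *Nkg7* and at chr14:56262285-56262584 (minus strand) for *Gzmb*. Capitals mark matches, on either strand, to short motifs of factors whose genes are described further on: TGTGGT for RUNX, GTGTGA for T-box, AGGAAG for ETS, TTCNNNGAA for STAT and CCACCC for KLF factors.
Prf1: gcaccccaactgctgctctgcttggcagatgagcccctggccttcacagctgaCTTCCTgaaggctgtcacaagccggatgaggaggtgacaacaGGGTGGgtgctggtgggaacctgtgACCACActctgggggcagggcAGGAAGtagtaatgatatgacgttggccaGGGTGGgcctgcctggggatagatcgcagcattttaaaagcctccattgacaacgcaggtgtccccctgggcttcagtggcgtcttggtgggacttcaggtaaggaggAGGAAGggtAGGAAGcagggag
Nkg7: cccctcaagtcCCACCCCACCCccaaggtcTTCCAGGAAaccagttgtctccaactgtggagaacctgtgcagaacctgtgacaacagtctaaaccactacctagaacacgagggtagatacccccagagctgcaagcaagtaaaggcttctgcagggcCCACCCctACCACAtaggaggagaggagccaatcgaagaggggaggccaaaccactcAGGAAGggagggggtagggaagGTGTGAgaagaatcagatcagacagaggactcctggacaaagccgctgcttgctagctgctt
Gzmb: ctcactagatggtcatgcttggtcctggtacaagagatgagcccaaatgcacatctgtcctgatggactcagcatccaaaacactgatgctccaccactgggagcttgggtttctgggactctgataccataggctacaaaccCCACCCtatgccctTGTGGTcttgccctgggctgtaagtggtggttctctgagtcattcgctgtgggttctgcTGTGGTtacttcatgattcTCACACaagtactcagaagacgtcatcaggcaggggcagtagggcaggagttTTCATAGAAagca

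The *Prf1* window held 1 RUNX match, 4 ETS matches and 2 KLF matches, and no match to the T-box or STAT letters. The *Nkg7* window held 1 RUNX, 1 T-box, 1 ETS, 1 STAT and 3 KLF matches. The 2 KLF matches farthest from the start site share a base. The *Gzmb* window held 2 RUNX, 1 T-box, 1 STAT and 1 KLF match. Such letters are common: of 32851 promoter windows of this length, 16.8% held the RUNX motif, 14.5% the T-box motif, 35.4% the ETS motif, 8.30% the STAT motif and 31.5% the KLF motif. Matched letters describe the window and are not evidence of binding.

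*Prf1*, which encodes perforin, had log2 values of 8.71, 8.72 and 8.62 in dKO cells, against 6.90, 6.79 and 6.69 in wild-type cells. The lowest dKO value lay far above the highest wild-type value. The dKO mean of 8.68 ± 0.06 (SD, n = 3) lay above the third quartile of the arrays (8.51 to 8.59), while the wild-type mean of 6.79 ± 0.10 (SD, n = 3) lay above their median. The increase was 1.89 on the log2 scale, with a standard error of 0.06 (limma, adjusted p = 6.1e-08) and a 95% interval of 1.75 to 2.03. Of the 19752 genes tested, 13.1% were called higher in dKO cells and 0.223% were called higher by 2-fold or more. *Prf1* ranked 5th by the size of its increase. With any single array left out, its log2 fold change stayed between 1.84 and 1.94.

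**Figure D1:**
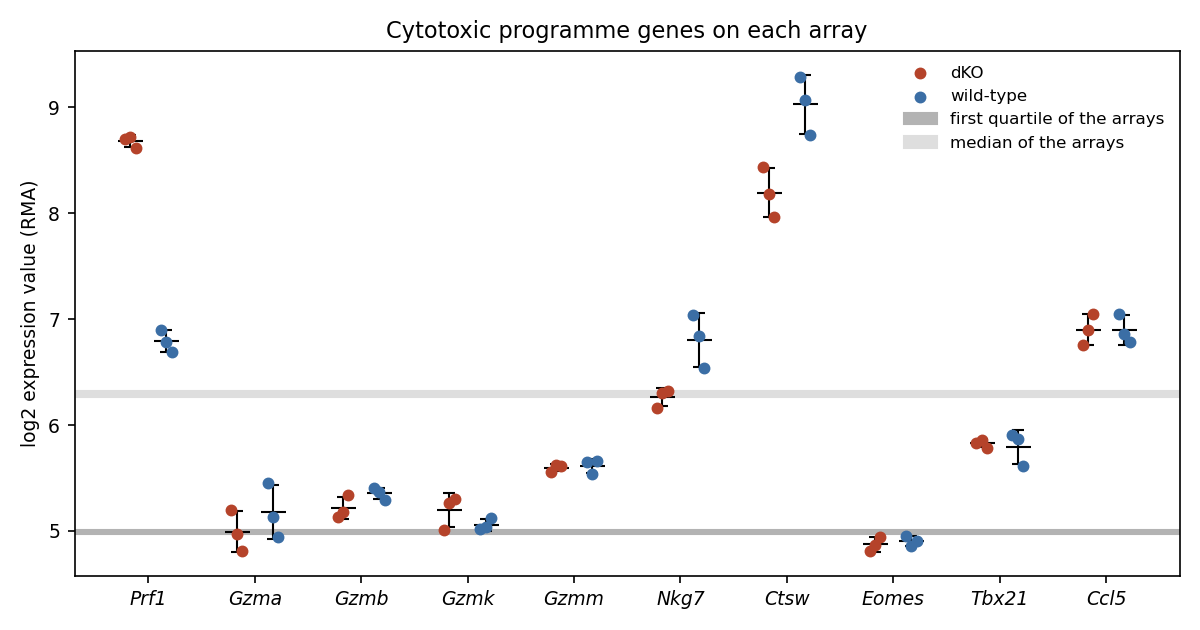
Log2 expression value (RMA, vertical axis) of each of the 10 cytotoxic genes in 3 dKO arrays (red, left of each pair) and 3 wild-type arrays (blue), with the mean and SD as black bars. Grey bands mark the range of the arrays' first quartiles (4.97 to 5.01) and medians (6.27 to 6.32). *Prf1* is the only gene whose dKO values all lie above its wild-type values, and those of *Nkg7* and *Ctsw* all lie below.

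The granzymes lay low in both genotypes. *Gzmb*, encoding the aspartate-cleaving protease of killer cells, had log2 values of 5.13, 5.18 and 5.34 in dKO cells, against 5.40, 5.37 and 5.29 in wild-type cells. These values lay just above the first quartile of the arrays, and the groups overlapped. On the log2 scale the difference was -0.14 with a standard error of 0.06 (limma, adjusted p = 0.15). The 95% interval of -0.28 to -0.0010 lay just below 0. *Gzma*, which encodes a tryptase, had log2 values of 5.19, 4.97 and 4.81 in dKO cells, against 5.45, 5.13 and 4.95 in wild-type cells. The ranges overlapped, at a log2 fold change of -0.18 (95% interval -0.46 to 0.10, adjusted p = 0.37).

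*Gzmk*, whose product is a tryptase related to granzyme A, had log2 values of 5.01, 5.27 and 5.30 in dKO cells, against 5.02, 5.04 and 5.12 in wild-type cells. Its log2 fold change was 0.14 (95% interval -0.03 to 0.31, adjusted p = 0.25 from limma), and the lowest dKO array lay below all wild-type arrays. Without dKO replicate 1 it was called higher, at 0.23 (adjusted p = 0.020). Likewise *Gzmb* was called lower only without dKO replicate 3, at -0.20 (adjusted p = 0.037). *Gzmm*, encoding a protease that cleaves after methionine, had a log2 fold change of -0.02 (95% interval -0.13 to 0.10), from 3 dKO values of 5.56 to 5.62 and 3 wild-type values of 5.53 to 5.66. Its sign turned when dKO replicate 1, wild-type replicate 1 or wild-type replicate 3 was left out.

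The 6 other granzyme genes with a row, *Gzmc* to *Gzmg* and *Gzmn*, encode proteases related to granzyme B. Across all 10 granzymes, values ranged from 4.26 to 5.62 in dKO cells and from 4.21 to 5.66 in wild-type cells, below the median of the arrays. By limma, 0 of the 10 passed the adjusted threshold, 1 (*Gzmb*) had an unadjusted p under 0.05, and log2 fold changes lay between -0.18 and 0.14. Over all genes, brighter ones included, 23.1% passed. *Gzmb* and these 6 genes are closely related, so probes may not fully tell them apart. RMA compresses differences near background, so a small change of a gene this dim was not detectable on these arrays.

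The 2 members that fell encode a protease and a membrane protein of cytotoxic lymphocytes. *Ctsw*, encoding cathepsin W, a cysteine protease held mainly in the endoplasmic reticulum of CD8+ T-cells and NK cells, had log2 values of 8.44, 8.18 and 7.97 in dKO cells, against 9.29, 9.07 and 8.74 in wild-type cells. It was the brightest member in wild-type cells. The dKO arrays were all lower than the wild-type arrays, although within either genotype the arrays spread over more than they did for *Prf1*. The mean was 8.19 ± 0.23 in dKO cells and 9.03 ± 0.28 in wild-type cells (SD, n = 3 each), a difference of -0.84 with a standard error of 0.14 (limma, adjusted p = 0.0019). On the linear scale this was 56.0% of the wild-type signal.

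*Nkg7*, which encodes a granule membrane protein required for granule release, had log2 values of 6.16, 6.30 and 6.33 in dKO cells, against 7.04, 6.84 and 6.54 in wild-type cells. The dKO values lay near the median of the arrays and under those of every wild-type array. The mean was 6.26 ± 0.09 in dKO cells and 6.81 ± 0.25 in wild-type cells (SD, n = 3 each), a difference of -0.54 with a standard error of 0.11 (limma, adjusted p = 0.0049). With any single array left out, *Ctsw* and *Nkg7* stayed called, at adjusted p of up to 0.011 and 0.024. Both calls were lost with unmoderated variances (adjusted p = 0.086 for *Ctsw* and 0.11 for *Nkg7*), a setting under which *Prf1* stayed called (adjusted p = 0.0036).

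The transcription factor genes of the programme lay low in both genotypes. *Eomes* had log2 values of 4.81, 4.87 and 4.94 in dKO cells, against 4.95, 4.86 and 4.90 in wild-type cells, below the first quartile of the arrays. *Tbx21*, encoding T-bet, had 5.83, 5.86 and 5.79 in dKO cells, against 5.90, 5.87 and 5.61 in wild-type cells. The groups overlapped for both genes. The log2 fold change was -0.03 for *Eomes* (95% interval -0.15 to 0.09, adjusted p = 0.75 from limma) and 0.03 for *Tbx21* (95% interval -0.13 to 0.20, adjusted p = 0.82), and each turned sign with some single array left out.

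*Ccl5*, encoding a chemokine stored and secreted by effector and memory T-cells, was measured above the median of the arrays. It had log2 values of 6.75, 6.90 and 7.05 in dKO cells, against 7.05, 6.86 and 6.78 in wild-type cells. The ranges were nearly the same, with a log2 fold change of 0.0025 (95% interval -0.19 to 0.19, adjusted p = 0.99 from limma) that turned slightly negative after either renormalization.

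**Figure D2:**
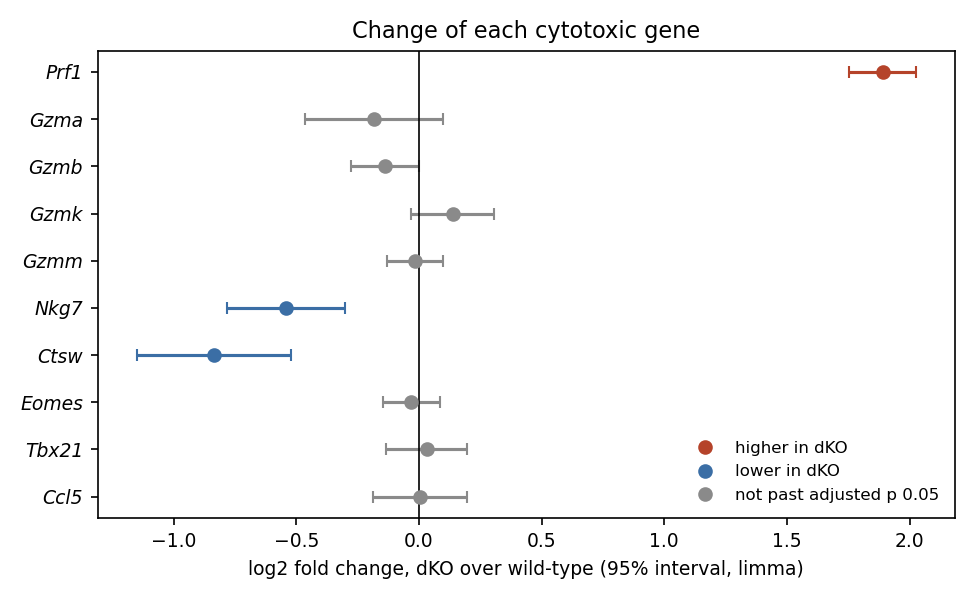
Log2 fold change (dKO over wild-type, horizontal axis) of the 10 cytotoxic genes with its 95% interval from limma, red where higher, blue where lower and grey for an adjusted p of 0.05 or more. *Prf1* stands at 1.89, *Nkg7* and *Ctsw* at -0.54 and -0.84, and the other 7 genes between -0.18 and 0.14.

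In all, 1 of 10 members was called higher and 2 were called lower, against 13.1% and 10% of all genes, or 23.1% in either direction. The shares among members are near this background. Groups did not overlap for the same 3 members, against 21.3% of all genes with dKO above wild-type, 16.5% with dKO below and 37.7% in either direction. The median log2 fold change of the members was -0.02, beside 0.0057 for all genes. Of the wild-type arrays, replicate 1 was the highest for 8 of the 10 members, whereas it was the highest for 34.2% of all genes. In dKO cells, replicates 1, 2 and 3 were the highest for 2, 3 and 5 members, against 31.0%, 29.8% and 39.2% of all genes.

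To ask whether *Prf1* rose apart from the others, the difference between its log2 value and that of each other member was compared between genotypes. In dKO cells *Prf1* exceeded *Ctsw* by 0.27, 0.54 and 0.65, whereas in wild-type cells it lay below *Ctsw*, at -2.39, -2.28 and -2.04. The order of these log2 values, which do not measure amounts of RNA between genes, thus changed with genotype, and the change in the difference was 2.73 (95% interval 2.30 to 3.15). Over the 9 members, the increase of *Prf1* exceeded the change of the other gene by 1.75 (for *Gzmk*) to 2.73, and the 95% interval excluded 0 for all 9. Adjusted p lay between 3.7e-05 and 2.6e-04 in a limma linear model with the spread of each difference alone. An exact two-sided permutation test gave p = 0.10 for each of the 9, the smallest that 3 against 3 arrays allow. This contrast does not set the members apart from other genes, since by the same test *Prf1* also rose more than 19745 of 19751 other genes (100% after rounding).

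**Figure D3:**
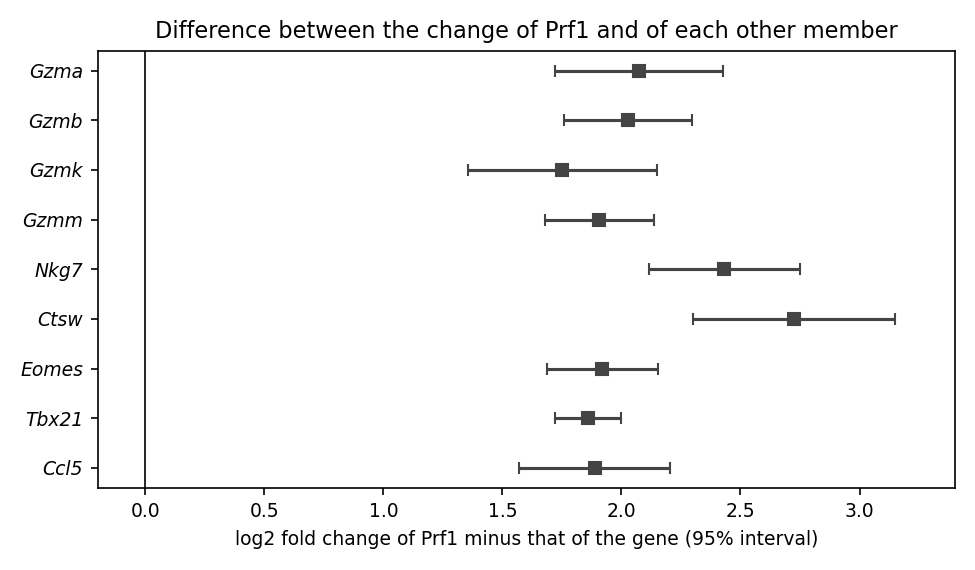
Log2 fold change of *Prf1* minus that of each other member (horizontal axis), with the 95% interval from the spread of that difference over 3 dKO and 3 wild-type arrays. The differences lie between 1.75 (*Gzmk*) and 2.73 (*Ctsw*), and all intervals lie above 0.

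The genes whose profile lay nearest that of *Prf1*, by Euclidean distance over the 6 arrays after subtraction of each gene's mean, were *Pfn2*, *Bmpr1a*, *Dennd5a*, *Lrrc3b* and *Stab2*. Their distances were 0.23, 0.26, 0.31, 0.41 and 0.45 on the log2 scale, and their log2 fold changes lay between 1.66 and 2.21. No other member came close: the nearest, *Gzmk*, stood at a distance of 2.17 and ranked 3760 of 19751. For genes this far apart the distance follows mainly the log2 fold change, so it restates the differences above and adds no separate support.

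Among the other effector genes of killer cells, 2 of 14 were higher, 1 was lower and 11 were not called, with a median log2 fold change of 0.02. The share called is near the 23.1% of all genes. *Fasl*, which encodes the death ligand that kills through the receptor Fas, had log2 values of 5.58, 5.72 and 5.72 in dKO cells, against 6.45, 6.17 and 6.56 in wild-type cells. It fell by 0.72 on the log2 scale (limma, adjusted p = 3.5e-04). *Lta*, encoding lymphotoxin alpha, had 7.09, 7.11 and 6.98 in dKO cells, against 6.49, 6.54 and 6.41 in wild-type cells, and was higher by 0.58 (adjusted p = 5.5e-05). Neither pair of groups overlapped. *Tnfsf10*, encoding the death ligand TRAIL, was higher by 0.22 (adjusted p = 0.025). That call was lost without dKO replicate 1 (adjusted p = 0.077), wild-type replicate 1 (0.078) or wild-type replicate 2 (0.083), and after either renormalization. *Ifng*, the interferon-γ gene that T-bet controls, differed by 0.01 (adjusted p = 0.90).

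Of 17 genes that assemble or release granules, 3 were lower, 3 were higher and 11 did not pass, with a median log2 fold change of 0.03. Of all genes, 10% were called lower and 13.1% higher. *Srgn*, encoding the proteoglycan on which perforin and granzymes are packed, had log2 values of 11.94, 11.82 and 11.87 in dKO cells, against 12.34, 12.45 and 12.55 in wild-type cells, and fell by 0.57 (adjusted p = 1.3e-04 from limma). *Rab27a*, a GTPase gene needed for granules to dock at the membrane, fell by 0.47 (adjusted p = 6.9e-04). *Lyst*, whose loss causes giant granules in Chediak-Higashi syndrome, also fell by 0.47 (adjusted p = 2.9e-04). The genes that rose were *Lamp1* and *Lamp2*, which encode lysosomal membrane proteins, and *Vamp7*, encoding a vesicle fusion protein, at log2 fold changes of 0.18 to 0.23. *Lamp2* lost its call without wild-type replicate 2 (adjusted p = 0.060). *Vamp7* lost its call without dKO replicate 1 (adjusted p = 0.082), dKO replicate 3 (0.091), wild-type replicate 2 (0.11) or wild-type replicate 3 (0.078), and after quantile normalization again (0.051) or cyclic loess (0.060). *Unc13d*, *Stx11* and *Stxbp2*, required for the release step, had log2 fold changes of -0.08, -0.24 and -0.06, none past the test.

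Of 26 measured regulators of cytotoxic or T-cell differentiation, 12 were lower, 2 were higher and 12 did not pass, with a median log2 fold change of -0.12. Of all genes, 10% were called lower and 13.1% higher. *Irf4*, *Klf2* and *Foxo1*, among those lower, were picked out in the study on samples of this kind, so they add no independent evidence of direction. The list itself was chosen with earlier results of these data known, so its count and median only describe it. *Runx3*, which promotes perforin expression in CD8+ T-cells, had log2 values of 9.40, 9.43 and 9.53 in dKO cells, against 9.85, 9.88 and 9.82 in wild-type cells, and fell by 0.40 (adjusted p = 3.4e-04 from limma). *Stat4*, the mediator of interleukin-12 signals, averaged 8.91 ± 0.08 in dKO cells and 10.09 ± 0.19 in wild-type cells (SD, n = 3 each), with no overlap. This was a 2.26-fold decrease (-1.18 on the log2 scale, adjusted p = 1.3e-05). *Elf4*, an ETS factor gene that promotes perforin transcription in mouse NK cells, had 10.38, 10.45 and 10.55 in dKO cells, against 11.07, 11.02 and 11.04 in wild-type cells, and fell by 0.59 (adjusted p = 4.3e-05). *Elf4* has 2 rows, and their mean gave a smaller log2 fold change of -0.28 (adjusted p = 0.0030). The fall thus rests on the brighter row, whose values are given here.

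*Zbtb7b*, encoding Thpok, which holds the cytotoxic programme silent in CD4 cells, was lower as well. It had log2 values of 9.56, 9.80 and 9.81 in dKO cells, against 9.93, 9.99 and 10.05 in wild-type cells, a difference of -0.27 (limma, adjusted p = 0.022). That call was lost without dKO replicate 1 (adjusted p just above 0.05), wild-type replicate 2 (adjusted p = 0.067) or wild-type replicate 3 (0.071). The study, by contrast, reported no reduction of *Zbtb7b* expression in dKO cells. The part of these regulators in the *Prf1* result was not tested.

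The 2 regulators that rose were *Bcl6* and *Prdm1*, which encode repressors that oppose each other in T-cells. *Bcl6* had log2 values of 8.50, 8.46 and 8.56 in dKO cells, against 7.55, 7.78 and 7.90 in wild-type cells, for a log2 fold change of 0.76 (adjusted p = 9.8e-05 from limma). *Prdm1*, encoding Blimp-1, was higher by 0.30 (adjusted p = 0.011), at dKO values of 6.60 to 6.70 and wild-type values of 6.21 to 6.49.

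Of 12 measured cytokine receptor genes that feed the cytotoxic programme, 8 were lower, 1 (*Il7r*, by 0.20) was higher and 3 did not pass, with a median log2 fold change of -0.40. Of all genes, 10% were called lower and 13.1% higher. Because this list was chosen with earlier results of these data known, its count and median only describe it. *Il18r1*, for the ligand-binding subunit that senses interleukin-18, had log2 values of 5.30, 5.17 and 5.34 in dKO cells, against 7.50, 7.64 and 7.46 in wild-type cells. It was 4.80-fold lower (adjusted p = 2.4e-08 from limma). Background in dKO cells may limit this fold, which was not tested. The interferon receptor genes *Ifngr1* and *Ifnar1* fell by 0.77 and 0.49 (adjusted p = 6.6e-06 and 7.2e-05). The interleukin-12 receptor genes *Il12rb1* and *Il12rb2* fell by 0.75 and 0.59 (adjusted p = 4.3e-04 and 9.0e-05). *Il2ra*, encoding the alpha chain of the interleukin-2 receptor, had 8.51, 7.89 and 7.64 in dKO cells, against 8.96, 8.95 and 8.96 in wild-type cells, with dKO replicate 1 nearest to them. *Il2rb*, whose product also serves the interleukin-15 receptor, fell by 0.29 (adjusted p = 0.020). The *Il2rb* call was lost without dKO replicate 1 (adjusted p = 0.076) or wild-type replicate 1 (0.052), and that on *Il7r* without wild-type replicate 2 (0.064).

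**Figure D4:**
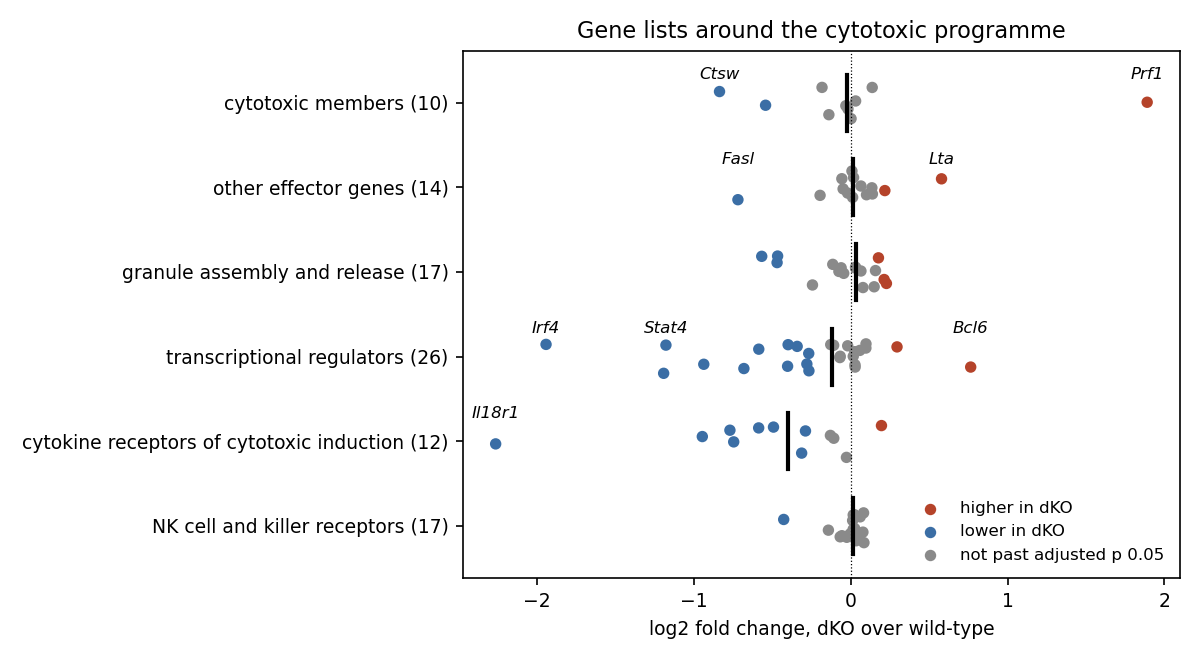
Log2 fold change (dKO over wild-type, horizontal axis) of each measured gene of 6 lists (rows, number of genes in parentheses), red where higher, blue where lower and grey for an adjusted p of 0.05 or more from limma. Points are spread vertically only for legibility, and black bars mark list medians, at -0.02 for the cytotoxic members, -0.12 for regulators and -0.40 for cytokine receptors. The lists were chosen with earlier results of these data known.

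Markers of other cytotoxic cells were examined beside the rise of *Prf1*. The 9 defining markers of NK cells, among them *Ncr1*, *Klrb1c* and *Klrd1*, lay between 3.92 and 5.89 in dKO cells and between 3.78 and 5.84 in wild-type cells, all below the median of the arrays. By limma 0 of the 9 were called, against 23.1% of all genes, brighter ones included, and 0 had an unadjusted p under 0.05. On the linear scale their summed signal was 235 to 243 in dKO cells and 230.4 to 237 in wild-type cells. In the wider list of 17 NK cell and killer receptors, *Crtam*, which marks a cytotoxic subset of CD4+ T-cells, was lower (log2 fold change -0.43, adjusted p = 0.024), a call lost without dKO replicate 1 (0.089), dKO replicate 2 (0.060) or wild-type replicate 3 (0.056).

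*Cd8b1*, encoding the CD8 beta chain, was also higher in dKO cells, as were 13.1% of all genes. It had log2 values of 10.12, 10.07 and 10.13 in dKO cells, against 9.59, 9.61 and 9.51 in wild-type cells, a log2 fold change of 0.54 (adjusted p = 3.8e-05 from limma). *Cd8a*, encoding the alpha chain, was not called, at 7.67, 7.56 and 7.57 in dKO cells, against 7.86, 7.84 and 7.62 in wild-type cells (log2 fold change -0.17, adjusted p = 0.11). It was called lower without wild-type replicate 3 and after either renormalization. Of 8 myeloid and dendritic cell markers, *Lyz2* was higher and *Itgam* lower, a share near the 23.1% of all genes called in either direction. The summed linear signal of the 8 markers was 323 to 385 in dKO cells and 339 to 359.6 in wild-type cells. *Lyz2* had 6.75, 6.02 and 5.48 in dKO cells, against 5.35, 5.43 and 5.03 in wild-type cells (adjusted p = 0.043). Its call was lost without any single array except dKO replicate 3 and with robust variances (adjusted p = 0.22), and its part in the *Prf1* result was not tested. In sorted populations, fewer cells of a type and less RNA per cell cannot be told apart.

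The measured genes on either side of *Prf1* did not move with it as a block. Of the 10 genes nearest in RefSeq order, 5 on each side, 1 was higher and 9 were not called, and log2 fold changes lay between -0.18 and 0.40. Of all genes, 13.1% were called higher and 23.1% in either direction, so the count does not set the neighbours apart. The measured genes next to *Prf1*, *Adamts14* and *Pald1*, had log2 fold changes of 0.11 (adjusted p = 0.30 from limma) and -0.18 (adjusted p = 0.078). *Sgpl1*, encoding the lyase that degrades sphingosine phosphate, had log2 values of 9.18, 9.03 and 9.08 in dKO cells, against 8.71, 8.68 and 8.71 in wild-type cells. It was higher by 0.40 (adjusted p = 3.7e-04), a smaller change than the 1.89 of *Prf1*.

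**Figure D5:**
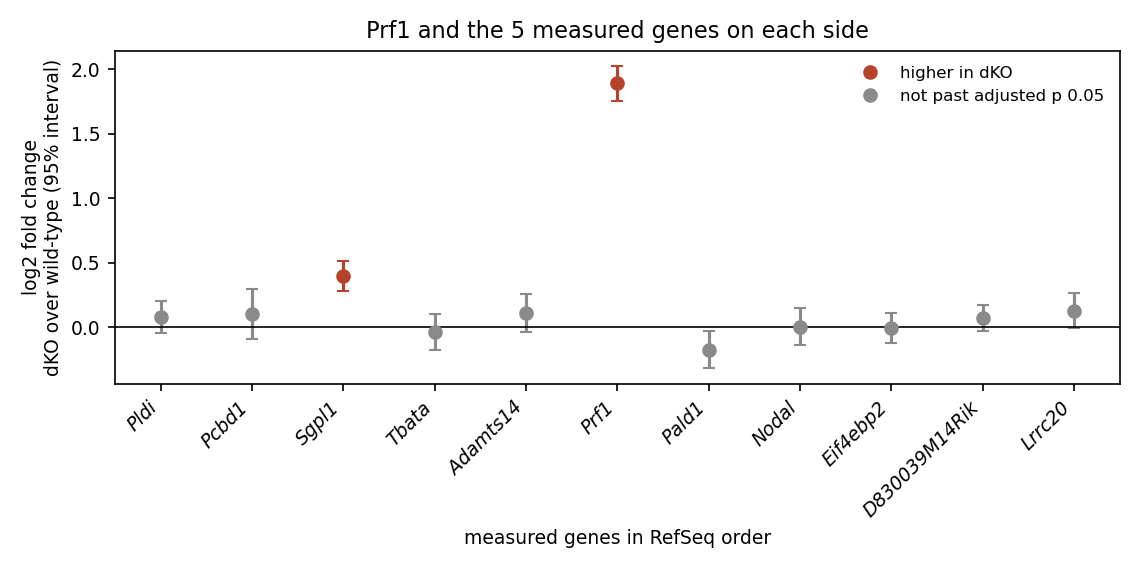
Log2 fold change (dKO over wild-type, vertical axis, with the 95% interval from limma) of *Prf1* and of the 5 measured genes on each side of it, in RefSeq order along the horizontal axis. *Prf1* stands at 1.89 and *Sgpl1* at 0.40 (red, higher in dKO cells), and the other 9 genes lie between -0.18 and 0.13.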

How the data were processed

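Transcript levels in sorted mature OT-II CD4 SP thymocytes came from 6 arrays, 3 of dKO and 3 of wild-type cells. The Methods and the row annotation name the Affymetrix Mouse Gene 1.0 ST array, while the series' design text names an exon array. The authors deposited log2 values, background-corrected, quantile normalized and summarized per transcript with RMA in Partek, as listed in the submitters' processing notes, with versions not given in the sources used here. RMA would hide a change shared by most genes and compresses dim ones.

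Of 25254 rows, 21496 carried 1 symbol in the array annotation, updated by Entrez identifier through RefSeq (GRCm38.p6). Rows with several (1565) or no symbols (2193) were left out, and the brightest row per gene was kept, leaving 19752 genes. limma 3.58.1 (R 4.3.3) was fitted with genotype as the only term, without a filter, with Benjamini-Hochberg adjustment over all genes at 0.05. For differences between *Prf1* and other genes, which all share the *Prf1* values, limma's pooled variance took the spread as known, so intervals and adjusted p come from the spread of each difference alone. The fits were tested on simulated data. Promoter windows of 8 of the 10 members were matched by symbol in a table drawn from RefSeq. Figures were drawn with matplotlib 3.10.9.

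Members and lists were chosen with earlier results of these data known. Genes eligible to be named, not all of which are, were the members, list genes past the threshold and up to 4 per list with the smallest p, the 5 measured neighbours on each side of *Prf1* and the 5 profiles nearest to it. *Ifng*, *Unc13d*, *Stx11* and *Stxbp2* were singled out with their values in view. List genes without a row are not analysed here. The alternatives were 2 renormalizations, the brightest 75% or 50% of genes, row averages in place of the brightest row, robust variances that follow intensity, an unmoderated Student's t-test, a block for the replicate number, and each array left out. The number of arrays limits the precision.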

Additional observations from a re-analysis of the deposited data

How the results depend on the processing

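*Prf1* stayed the only member called higher under every alternative except 1: without dKO replicate 1, *Gzmk* joined it (range 1 to 2 members with 1 array left out). Its log2 fold change stayed between 1.84 and 1.94, with an adjusted p of up to 0.0036, and stayed above the change of each other member tested. This is a comparison of values, except for Student's t-test, which gave the intervals and adjusted p of the differences printed above. Student's t-test called 0 members lower, and over all genes 1392 higher and 1173 lower, against 2587 and 1976 with limma. Of the list genes named, it lost *Tnfsf10*, *Lamp2*, *Vamp7*, *Prdm1*, *Zbtb7b*, *Il2ra*, *Il2rb*, *Crtam*, *Cd5* and *Lyz2*. Values near 0 turned sign. After quantile normalization again *Ccl5* stood at -0.0062 and *Eif4ebp2* at 0.038, and after cyclic loess *Ccl5* stood at -0.017. With 1 array left out, ranges were -0.057 to 0.0047 for *Gzmm*, -0.066 to 0.0022 for *Eomes*, -0.060 to 0.085 for *Tbx21*, -0.070 to 0.079 for *Ccl5*, -0.11 to 0.0068 for *Tbata*, -0.036 to 0.058 for *Nodal* and -0.045 to 0.037 for *Eif4ebp2*. Keeping the brightest 75% of genes left 9 members, and 50% left 4, with the same calls among them.

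Whether the replicate numbers pair the arrays was not tested. Deviations of same-numbered arrays correlated at 0.10, 0.02 and 0.07, and those of differently numbered arrays at -0.10 to 0.04. Replicates 1 and 3 of dKO cells correlated best with the wild-type array of their own number, and dKO replicate 2 with another number. With the replicate number as a block, 2574 genes were called higher and 1970 lower, the log2 fold change of *Prf1* was 1.89 (adjusted p = 5.7e-07), and 3 members were called lower, *Gzma* (adjusted p = 0.034) beside *Nkg7* and *Ctsw*. The dimness of most members on these arrays limits what could be detected.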
